A study of Mus musculus with 8 samples.

Results

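The genes described here are 40 mouse genes of the unfolded protein response and the heat shock response, chosen by name and matched to the rows of the count table through their Ensembl identifiers. All 40 reached 10 counts in 4 or more libraries, and they are 40 of the 20153 genes that passed this filter, from 55573 genes listed. The libraries were made from microglia, the resident macrophages of the brain, sorted from mice at postnatal day 60. SmadKO denotes 4 mice that lack Smad2 and Smad3 in microglia, and WT denotes their 4 littermates. The mutant genotype is Smad2/3 fl/fl;Cx3cr1 Cre in the study's account. The labels call the littermates wild-type, whereas the study's methods describe controls in general as carrying the Cre with heterozygous floxed alleles. Cx3cr1 Cre is expressed in microglia and in related macrophages, so that deletion is not limited to 1 cell type. Each library comes from a separate mouse.

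Proteins that enter the endoplasmic reticulum (ER) are folded by resident chaperones, and those that fail to fold are extracted and degraded in the cytosol, a route called ER-associated degradation. When unfolded proteins accumulate, the sensors IRE1 (encoded by Ern1), PERK (Eif2ak3) and ATF6 raise the transcription factors XBP1, ATF4 and cleaved ATF6, which in turn raise the genes for chaperones and degradation factors. The cytosol has its own program, in which heat shock factor 1 (Hsf1) raises the HSP70, HSP90, HSP40 and small heat shock proteins. Macrophages secrete and take up large amounts of protein, and both programs are also engaged by handling of tissue and cells.

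Promoter sequences were searched for exact matches to known response elements. RefSeq promoter windows (GRCm38.p6) matched 33 of the 40 genes, with 38 windows in all, since some genes have more than 1 start site. Hyou1, Manf, Atf6, Hspa8, Hsp90aa1, Hsp90ab1 and Hsf1 had no entry. The 250 bases before each start site were searched on both strands for the ER stress element (CCAAT, then 9 bases, then CCACG), the site through which ATF6 acts together with NF-Y. It was found in 7 members, Hspa5, Hsp90b1, Calr, Canx, Pdia6, Dnajc3 and Creld2, all of them ER chaperones or folding enzymes, and in 37 of all 32851 windows (0.113%). The shorter element of Herpud1 (ATTGG, then 1 base, then CCACG), added to the search after the sequences had been read, was found in 1 member window and in 10 of all windows (0.0304%). The sequences below are those of the 4 called genes with a window that carry the results on folding and degradation, Calr, Canx, Herpud1 and Edem1, and of Hspa5, the central ER chaperone. They are given 5′ to 3′ on the strand of the gene, with the element in capitals.
Hspa5: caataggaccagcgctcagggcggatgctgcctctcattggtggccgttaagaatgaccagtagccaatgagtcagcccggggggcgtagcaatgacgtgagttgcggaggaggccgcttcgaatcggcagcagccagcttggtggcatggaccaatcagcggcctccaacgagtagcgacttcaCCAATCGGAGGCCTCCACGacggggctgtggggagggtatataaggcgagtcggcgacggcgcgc
Calr: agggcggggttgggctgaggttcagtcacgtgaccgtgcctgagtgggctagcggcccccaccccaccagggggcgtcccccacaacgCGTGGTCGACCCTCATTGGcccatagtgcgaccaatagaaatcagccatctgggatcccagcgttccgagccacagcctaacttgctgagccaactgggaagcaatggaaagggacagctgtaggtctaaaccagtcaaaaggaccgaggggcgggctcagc
Canx: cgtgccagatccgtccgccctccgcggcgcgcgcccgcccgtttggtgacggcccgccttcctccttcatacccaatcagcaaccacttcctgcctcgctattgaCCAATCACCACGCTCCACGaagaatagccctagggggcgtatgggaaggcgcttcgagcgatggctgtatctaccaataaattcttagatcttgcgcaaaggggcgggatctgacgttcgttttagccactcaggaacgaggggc
Herpud1: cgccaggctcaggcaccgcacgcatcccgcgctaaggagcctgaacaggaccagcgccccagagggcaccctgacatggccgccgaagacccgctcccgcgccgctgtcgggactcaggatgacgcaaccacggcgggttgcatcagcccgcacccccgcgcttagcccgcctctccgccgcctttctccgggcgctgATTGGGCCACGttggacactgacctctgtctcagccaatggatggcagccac
Edem1: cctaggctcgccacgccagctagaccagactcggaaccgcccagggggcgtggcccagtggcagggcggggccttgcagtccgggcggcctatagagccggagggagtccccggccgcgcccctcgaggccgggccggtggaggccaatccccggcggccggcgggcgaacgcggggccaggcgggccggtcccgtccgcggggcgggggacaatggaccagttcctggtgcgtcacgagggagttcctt
The windows lie at chr2:34771840-34772089 (Hspa5, plus strand), chr8:84846932-84847181 (Calr, minus strand), chr11:50325674-50325923 (Canx, minus strand), chr8:94386179-94386428 (Herpud1, plus strand) and chr6:108828391-108828640 (Edem1, plus strand). The element starts 65 bases before the start site in Hspa5, 162 bases before it in Calr and 145 bases before it in Canx. Edem1 holds neither form in these letters. The XBP1 element (TGACGTGG, in 0.563% of all windows) and the C/EBP-ATF element through which ATF4 acts (TGATGCAAT, in 0.167%) were found in 0 member windows. They were searched in these exact letters only, so a window without a match may still hold a variant of either element. The heat shock element (GAA, 2 bases, TTC, 2 bases, GAA, or the same in the opposite phase, in 0.466% of all windows) was found only in Hspd1 and Hspe1, which are transcribed in opposite directions from overlapping windows and share the same matches. Only perfect matches to this pattern were counted, so the search does not show that the other members lack a heat shock element with imperfect units.

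Total counts per library were 37649124 to 40932680 in WT and 35639502 to 41946479 in SmadKO. Values are given as CPM, the counts of a gene per 1000000 counts of its library after scaling by the trimmed mean of M-values (TMM). Of the targeted genes, Smad3 was 48.7 ± 7.13 CPM in WT and 19.3 ± 11.03 in SmadKO (mean ± SD, n = 4, log2 fold change -1.33 ± 0.36 SE, adjusted p = 0.0429, edgeR), and Smad2 was 74.6 ± 13.8 and 58.8 ± 14.96 CPM (log2 fold change -0.34, adjusted p = 0.340). The counts cover whole genes, including exons outside the deleted part. The Smad3 call held in 1 of the 8 fits that each left out 1 library. Of the 8 microglial markers 6 fell, and their summed level was 30003 to 45022 CPM in WT and 8718 to 11547 in SmadKO. Of the 4 markers of border macrophages 3 rose, from a summed 20.5 to 31.9 CPM to 1093 to 1719 CPM. Oligodendrocyte markers summed to 536 to 3796 CPM in WT and 948 to 3134 in SmadKO. Those of monocytes and neutrophils summed to 440 to 1583 and 242 to 761 CPM, and those of neurons to 26.7 to 222 and 60.7 to 191 CPM. In these 3 cell types 0 markers were called. The B and plasma cell markers summed to 8.93 to 69.0 CPM in WT and 8.23 to 32.2 in SmadKO. Of the 3 T cell markers 2 rose (2.88 to 13.0 CPM summed in WT and 15.7 to 48.7 in SmadKO), and of the 4 astrocyte markers 1 fell, Slc1a3 (1349 ± 290 CPM in WT and 78.9 ± 63.0 in SmadKO), while Gfap, Aqp4 and Aldh1l1 did not pass the test (log2 fold changes 0.65, 0.73 and 0.27). The part of these cells in the member results was not tested. In bulk RNA, fewer cells of a type and less RNA per cell cannot be told apart. All WT libraries held Xist (99.5 to 183 CPM, against at most 0.562 in SmadKO) and all SmadKO libraries held Ddx3y (9.74 to 59.8 CPM, against at most 0.224 in WT), so genotype and sex cannot be told apart in any comparison given here.

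In SmadKO microglia 6 members fell and 0 rose at an adjusted p under 0.05 (edgeR quasi-likelihood test, Benjamini-Hochberg over all genes tested). The 6 were the ER chaperones Calr, Canx and Hyou1, the degradation factors Herpud1 and Edem1, and the transcription factor gene Ddit3. They make up 15% of the members, against 7.97% of all genes called lower and 4.36% called higher. The members were chosen with earlier results of these data known, so the shares given here are descriptions only. Among the more abundant genes, those whose mean reached 3 log2 CPM, a reference chosen after the data were seen, 12.6% were called lower, against 6 of 38 members (15.8%). At an unadjusted p under 0.05, 17 members were lower and 1 was higher, against 15.6% and 13.1% of all genes. DESeq2 called 14 members lower and 1 higher, against 11.5% and 8.97% of the genes to which it gave an adjusted p. Of the 10772 more abundant genes, 2556 were lower and 1802 higher at an unadjusted p under 0.05 (edgeR). DESeq2 called 2013 of them lower and 1365 higher. In 14 members (35%) all 4 SmadKO values lay below all 4 WT values, and in 0 members they lay above, against 13.0% and 9.04% of all genes, and against 18.5% for the lower direction among the more abundant genes. The median log2 fold change of the members was -0.38, beside 0.01 over all genes tested and -0.08 over the more abundant genes, with 30 members below 0 and 10 above.

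**Figure D1:**
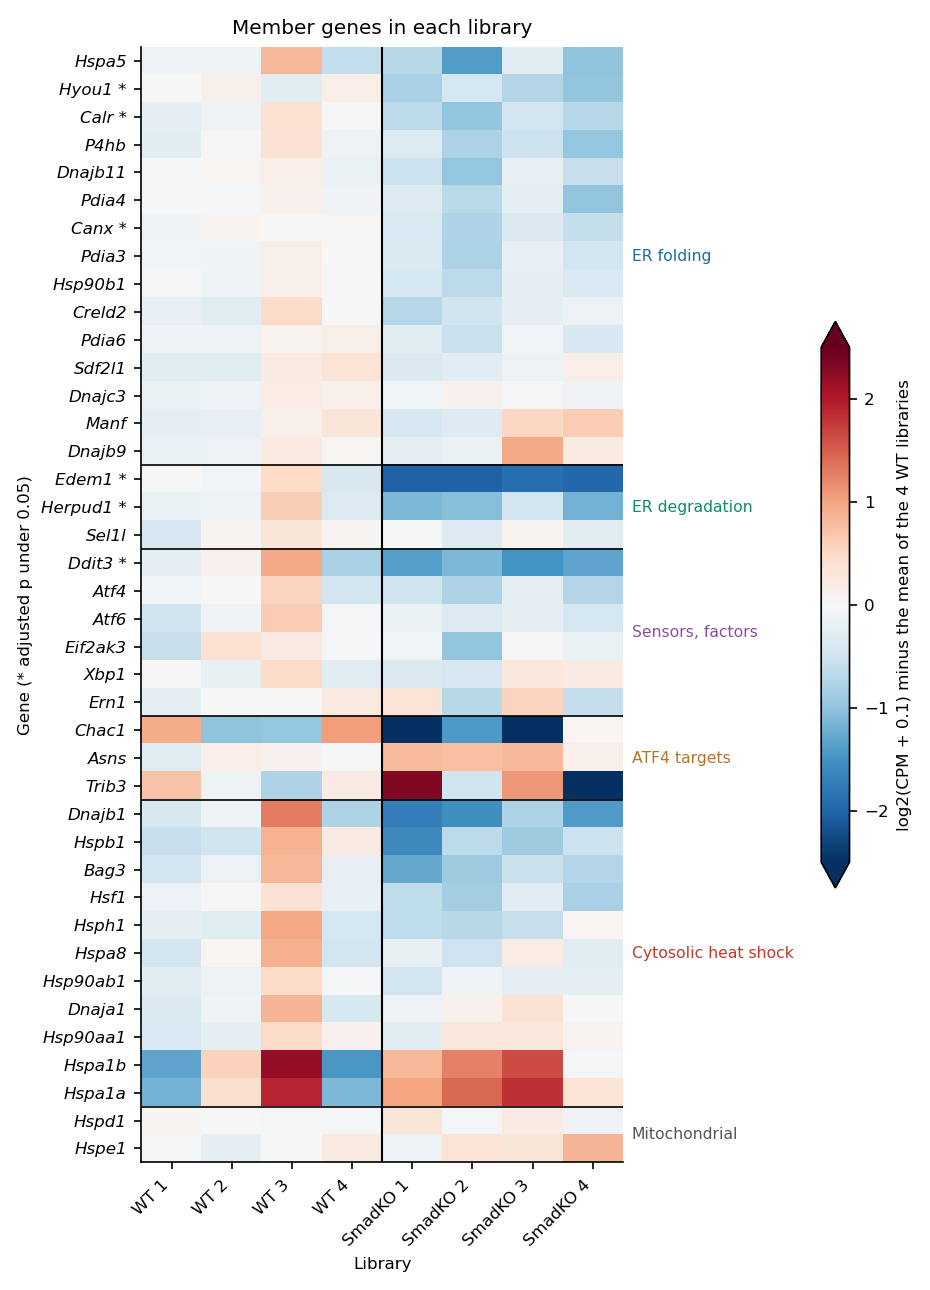
Each row is a member gene and each column a library. Color gives log2(CPM + 0.1) minus the mean of the 4 WT libraries, rows are grouped by role, and asterisks mark the 6 genes with an adjusted p under 0.05. Blue runs through the SmadKO columns for most ER folding and degradation genes, and the WT 3 column is the reddest of the WT columns in all 11 cytosolic heat shock genes.

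**Figure D2:**
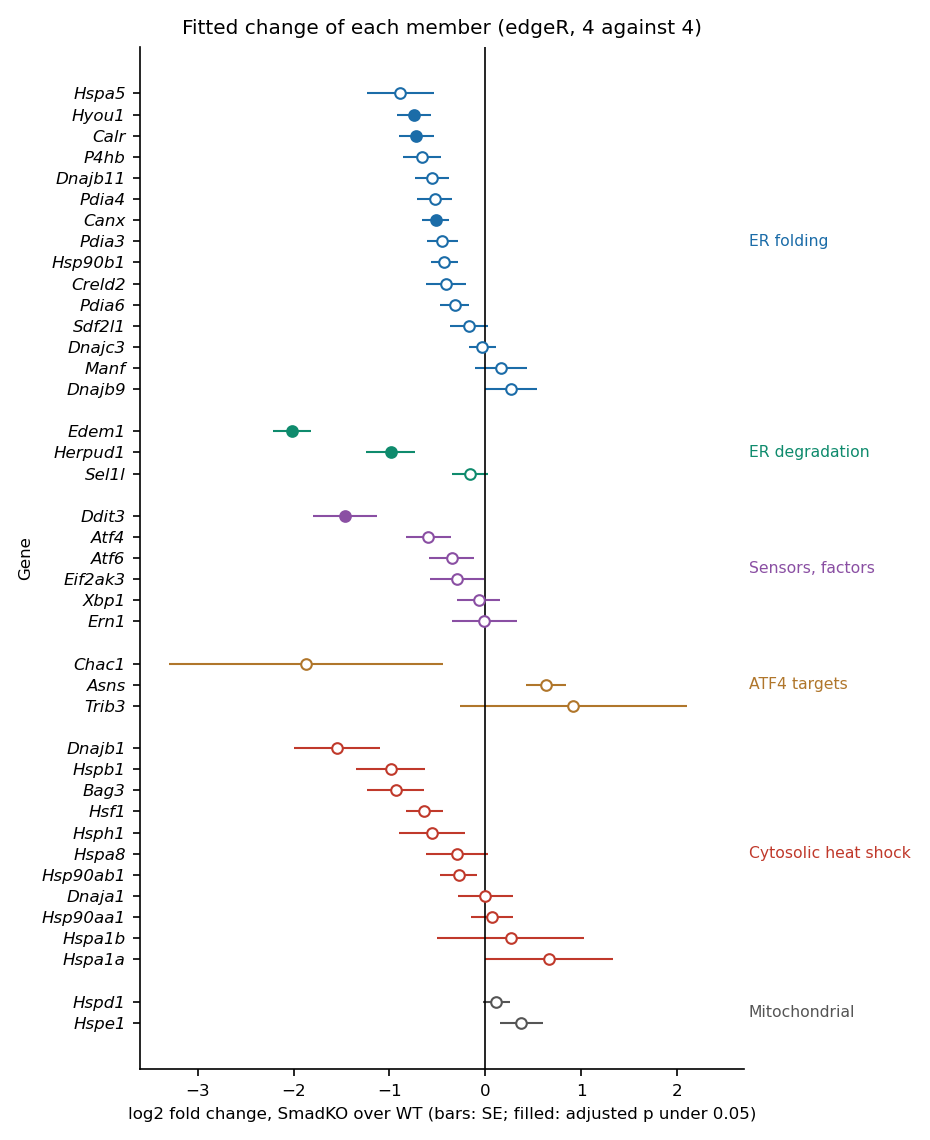
Points give the fitted log2 fold change of SmadKO over WT for each member and bars its SE (edgeR, 4 against 4 libraries). Filled points have an adjusted p under 0.05. The 6 filled points all lie below 0, from -0.52 (Canx) to -2.02 (Edem1), and Trib3 and Chac1, both near 0 counts in some libraries, have the widest bars.

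Among the 15 ER chaperones and folding enzymes, 3 fell (20%), 0 rose and 12 did not pass the test. Of all genes 7.97% were called lower and 4.36% higher, and of the more abundant genes 12.6% and 6.37%. The median log2 fold change of the 15 was -0.45. At an unadjusted p under 0.05, 9 were lower and 0 higher (15.6% and 13.1% of all genes), and DESeq2 called 8 lower and 0 higher (11.5% and 8.97%). All 4 SmadKO values lay below all 4 WT values in 8 of the 15 (53.3%), and above them in 0. Over all genes these shares were 13.0% and 9.04%, and over the more abundant genes 18.5% and 10.4%. The summed level of the 15 was 7661 ± 1755 CPM in WT (6555 to 10280) and 4996 ± 955 CPM in SmadKO (3914 to 6189). This was 34.8% below the WT mean, and the ranges of the sums did not overlap.

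Calr (chr8:84841850-84846934, minus strand, GRCm38) encodes calreticulin, a calcium-binding lectin chaperone of the ER lumen. Its levels were 878, 950, 1348 and 1032 CPM in WT 1 to 4 and 657, 522, 745 and 633 CPM in SmadKO 1 to 4. Every SmadKO library was below every WT library, and the mean was 1.65-fold lower (log2 fold change -0.72 ± 0.19 SE, adjusted p = 0.0357, edgeR). Canx (chr11:50293961-50325673, minus strand) encodes calnexin, the membrane-bound partner of calreticulin that retains glycoproteins until they are folded. It was at 331, 370, 347 and 359 CPM in WT and at 270, 206, 275 and 232 CPM in SmadKO. The groups again did not overlap, with the smallest spread among the WT libraries of the 3 called chaperones in proportion to the mean, and the change was 1.43-fold (log2 fold change -0.52 ± 0.14 SE, adjusted p = 0.0455, edgeR). Hyou1 (chr9:44379490-44392369, plus strand) encodes a large HSP70-like chaperone that acts as a nucleotide exchange factor for BiP. It was at 45.7, 49.9, 37.3 and 51.0 CPM in WT and 25.9, 33.6, 27.5 and 22.9 CPM in SmadKO. WT 3, high for most members, was the lowest WT library for Hyou1, and the mean in SmadKO was 1.67-fold lower (log2 fold change -0.74 ± 0.18 SE, adjusted p = 0.0263, edgeR).

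Hspa5 encodes BiP, the main HSP70 of the ER, and had the highest level per length of all members in WT, at 666 CPM per kilobase of exon. It was at 2438, 2435, 4698 and 1702 CPM in WT and 1618, 995, 2187 and 1305 CPM in SmadKO. The groups overlapped through WT 4 and SmadKO 3, and the mean was 45.8% below WT (log2 fold change -0.88 ± 0.35 SE, adjusted p = 0.131, edgeR). The size of this difference was above that of the 3 called chaperones, but its spread was wider and it did not pass the test. Hsp90b1, the ER paralog of HSP90, was 507 ± 36.1 CPM in WT and 378 ± 43.6 in SmadKO, without overlap (adjusted p = 0.0828). P4hb, the founding protein disulfide isomerase, was 587 ± 113 and 372 ± 70.3 CPM, also without overlap (adjusted p = 0.0583).

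The disulfide isomerases Pdia3 and Pdia4 and the BiP cochaperone gene Dnajb11 showed log2 fold changes of -0.45, -0.53 and -0.55, each with all SmadKO libraries below all WT libraries and adjusted p of 0.104, 0.0924 and 0.0766 (edgeR). Pdia6 (-0.32) and Creld2 (-0.41), a disulfide isomerase and an ER stress-inducible secreted protein, had overlapping groups and adjusted p of 0.209 and 0.240. The 4 others had fold changes nearer to 0. Dnajc3, an inhibitor of PERK and BiP cochaperone, was 108 ± 13.0 CPM in WT and 106 ± 6.83 CPM in SmadKO (log2 fold change -0.03). Sdf2l1, Manf and Dnajb9, which encode a BiP-associated factor, a secreted trophic protein and a cochaperone that restrains IRE1, had log2 fold changes of -0.17, 0.16 and 0.27 with adjusted p from 0.574 to 0.745. Of the 7 members with a match to the ER stress element, 2 were called lower, Calr and Canx, and 5 were not. Of all genes 7.97% were called lower, and of the more abundant genes 12.6%. The called gene Hyou1 had no promoter window to search.

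Of the 6 roles, the 3 members of ER-associated degradation had the largest fall in summed level in proportion to the WT mean. Their summed level was 767 ± 218 CPM in WT (605 to 1088) and 364 ± 69.5 CPM in SmadKO (319 to 467), 52.6% below the WT mean. Edem1 and Herpud1 fell (66.7%) and Sel1l did not pass the test. Of all genes 7.97% were called lower and 4.36% higher, and of the more abundant genes 12.6% and 6.37%.

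Edem1 (chr6:108828641-108859356, plus strand) encodes a mannosidase-like lectin that hands misfolded glycoproteins over to degradation. Its levels were 218, 209, 309 and 166 CPM in WT 1 to 4 and 54.1, 53.7, 59.0 and 56.2 CPM in SmadKO 1 to 4. The lowest WT library was above the highest SmadKO library by more than the whole range of the SmadKO libraries, whose SD was only 2.44 CPM. The mean was 4.04-fold lower in SmadKO (log2 fold change -2.02 ± 0.20 SE, adjusted p = 0.000335, edgeR), and the call held in all 8 fits that left out 1 library (log2 fold change -2.09 to -1.82).

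Herpud1 (chr8:94386438-94395377, plus strand) encodes an ER membrane protein that organizes the ubiquitin ligase complex and is among the genes most readily induced by ER stress. It was at 391.6, 404, 673 and 348 CPM in WT and at 200, 209, 317 and 192 CPM in SmadKO. The library numbered 3 was the highest in each group, and no SmadKO library reached the lowest WT library (1.98-fold lower, log2 fold change -0.98 ± 0.26 SE, adjusted p = 0.0374, edgeR). Sel1l, the scaffold of the same ligase, was 87.8 ± 17.4 CPM in WT and 78.6 ± 11.2 CPM in SmadKO with overlapping groups (log2 fold change -0.16, adjusted p = 0.623).

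Of the 6 sensors and transcription factors 1 fell (16.7%), Ddit3, and 0 rose, beside 7.97% and 4.36% of all genes. All 6 fitted log2 fold changes were below 0, with a median of -0.32. Ddit3 (chr10:127290774-127296288, plus strand) encodes CHOP, a transcription factor raised by ATF4 under prolonged stress. It was at 91.5, 115, 207 and 61.6 CPM in WT and at 41.4, 49.4, 38.4 and 42.9 CPM in SmadKO. The SmadKO libraries lay close together and below every WT library, while the WT libraries ranged widely (2.76-fold lower, log2 fold change -1.47 ± 0.33 SE, adjusted p = 0.0216, edgeR). The exons of Ddit3 overlap those of other annotated genes, by at most 105 bases (6.13% of its exon length), and the libraries were unstranded. Atf4 itself, whose protein is controlled mostly at translation, was 435 ± 135 CPM in WT and 288 ± 50.03 CPM in SmadKO, with overlapping groups (log2 fold change -0.60 ± 0.23 SE, adjusted p = 0.132, edgeR).

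The sensors did not pass the test. Atf6 was 48.6 ± 16.6 CPM in WT and 38.1 ± 3.08 in SmadKO (log2 fold change -0.35, adjusted p = 0.361), and Eif2ak3 was 27.7 ± 7.43 and 22.6 ± 6.27 (-0.29, adjusted p = 0.543). Ern1 was low, at 6.88 to 9.68 CPM in WT and 5.06 to 12.1 in SmadKO, with a log2 fold change of -0.01. Xbp1, whose messenger is activated by unconventional splicing that gene counts cannot show, was 278 ± 66.8 CPM in WT and 265 ± 64.8 in SmadKO (-0.07, adjusted p = 0.879).

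Of the 3 ATF4 targets 0 were called by edgeR. At an unadjusted p under 0.05, 0 were lower and 1 was higher (15.6% and 13.1% of all genes). DESeq2 also called 0 lower and 1 higher (11.5% and 8.97%). Asns, asparagine synthetase, was at 13.6, 18.7, 18.1 and 16.9 CPM in WT and 29.1, 28.2, 29.2 and 18.1 CPM in SmadKO. The first 3 SmadKO libraries were above every WT library, and SmadKO 4 was within the WT range (log2 fold change 0.64 ± 0.21 SE, adjusted p = 0.0813 by edgeR and 0.0270 by DESeq2). Without SmadKO 4 the edgeR call was reached (log2 fold change 0.78, adjusted p = 0.0330). Trib3, a pseudokinase that inhibits AKT and CHOP, had 104, 56, 32 and 69 counts in WT and 325, 51, 126 and 0 in SmadKO. Chac1, a glutathione-degrading enzyme, had 123, 29, 28 and 128 counts in WT and 0, 25, 0 and 61 in SmadKO. At these counts neither gene showed a difference between the groups that exceeded the spread of the libraries (adjusted p = 0.665 and 0.436, edgeR).

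**Figure D3:**
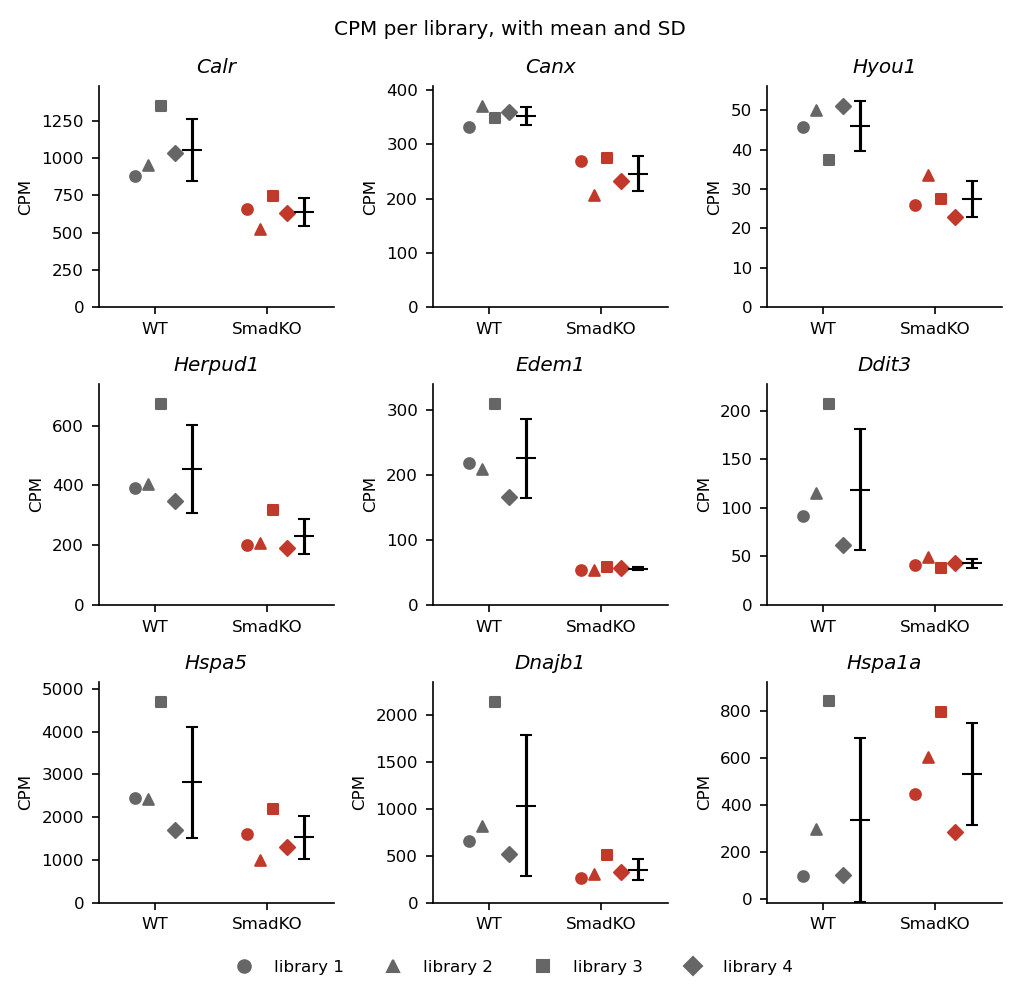
CPM of 9 members in each library, with 1 symbol for each library number and, beside the symbols, the group mean and SD (n = 4). Edem1 shows the SmadKO libraries in a narrow band at 53.7 to 59.0 CPM, below all WT libraries, whereas Hspa5 and Hspa1a overlap between the groups and WT 3 is the highest WT library in 7 of the 9 panels.

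Of the 11 cytosolic heat shock proteins and cochaperones 0 were called by edgeR in either direction, beside 7.97% lower and 4.36% higher of all genes. At an unadjusted p under 0.05, 4 were lower and 0 higher (15.6% and 13.1% of all genes). DESeq2 called 3 lower (Dnajb1, Bag3 and Hsf1) and 0 higher (11.5% and 8.97%). The median log2 fold change was -0.30, 7 were below 0, and their summed level was 5386 ± 3466 CPM in WT and 4657 ± 1108 CPM in SmadKO. The WT sum ran from 3134 to 10474 CPM, so that the SmadKO libraries lay within the WT range.

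Dnajb1, the main HSP40 partner of cytosolic HSP70, was at 662, 814, 2144 and 517 CPM in WT and 269, 305, 514 and 329 CPM in SmadKO. The highest SmadKO value was just below the lowest WT value, and the mean was 2.92-fold lower (log2 fold change -1.55 ± 0.45 SE, adjusted p = 0.0542 by edgeR and 0.00571 by DESeq2). Bag3, a nucleotide exchange factor that links HSP70 to autophagy, was 73.0 ± 32.7 CPM in WT and 38.2 ± 7.67 in SmadKO, and Hsf1, the factor that drives the program, was 65.5 ± 12.02 and 42.1 ± 8.48 CPM, both without overlap (adjusted p = 0.0737 and 0.0632, edgeR).

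The inducible HSP70 genes had higher means in SmadKO with very wide spreads. Hspa1a was at 98.2, 297, 843 and 103 CPM in WT and 446, 604, 796 and 283 CPM in SmadKO. WT 3 exceeded every other library, and the remaining WT libraries were mostly below the SmadKO libraries (log2 fold change 0.67 ± 0.67 SE, adjusted p = 0.568, edgeR). Hspa1b was at 268, 997, 3091 and 244 CPM in WT and 1198, 1610, 2067 and 648 CPM in SmadKO (log2 fold change 0.26 ± 0.77 SE, adjusted p = 0.866). Hspa1a and Hspa1b are near-identical neighbors, and 62.3% of the 50-base words of Hspa1b also occur in Hspa1a, so reads between them are uncertain.

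The remaining genes of the cytosolic group overlapped between the genotypes. Hspb1, a small heat shock protein, was 46.5 ± 23.0 CPM in WT and 23.5 ± 6.85 in SmadKO (log2 fold change -0.99, adjusted p = 0.110). Hsph1, an HSP110 exchange factor, Hspa8, the constitutive HSP70, and Hsp90ab1, the constitutive HSP90, had log2 fold changes of -0.56, -0.30 and -0.28. Hsp90aa1, the inducible HSP90, and Dnaja1, an HSP40, had 0.07 and 0.00, and adjusted p over these 5 ran from 0.325 to 0.999. Between 20.6% (Dnaja1) and 50.1% (Hspb1) of the 50-base words of Hspb1, Hspa8, Hsp90aa1 and Dnaja1 were shared with other annotated genes. The mitochondrial chaperonins Hspd1 (HSP60) and Hspe1 (HSP10) had log2 fold changes of 0.11 and 0.38 with adjusted p of 0.652 and 0.3001, and 42.1% and 22.8% of their words were shared.

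WT 3 was the highest WT library for 28 of the 40 members (70%), against 27.4% of all genes and 33.8% of the more abundant genes. It was the highest for all 11 cytosolic heat shock genes. It was also the highest WT library for 12 of 15 immediate early genes, which respond within minutes to stimulation and to cell isolation. In SmadKO the highest library was SmadKO 3 for 24 members (60%), against 24.9% of all genes and 26.4% of the more abundant genes. SmadKO 3 was also the highest for 14 of the 15 immediate early genes. Their part in the member results was not tested. With both of these libraries left out, a comparison chosen after the data were seen, 3 members were called lower (Herpud1, Edem1 and Dnajb1), 0 were called higher, and the median log2 fold change of the members was -0.25.

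The number of members called depended on single libraries. Without WT 1, 2, 3 or 4 edgeR called 3, 1, 3 and 4 members lower, and without SmadKO 1, 2, 3 or 4 it called 3, 3, 5 and 1. Edem1 was called in all 8 of these fits. Ddit3 was called in 5, and not without WT 2, SmadKO 3 or SmadKO 4 (adjusted p up to 0.0568). Calr was called only without WT 1 or SmadKO 3, Hyou1 only without WT 3 or SmadKO 2, and Herpud1 only without WT 4 or SmadKO 3, with adjusted p up to 0.0938, 0.0824 and 0.0990. Canx was called in 0 of the 8, with adjusted p from 0.0547 to 0.126. For all 6 genes the fitted direction was the same in each of these fits.

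**Figure D4:**
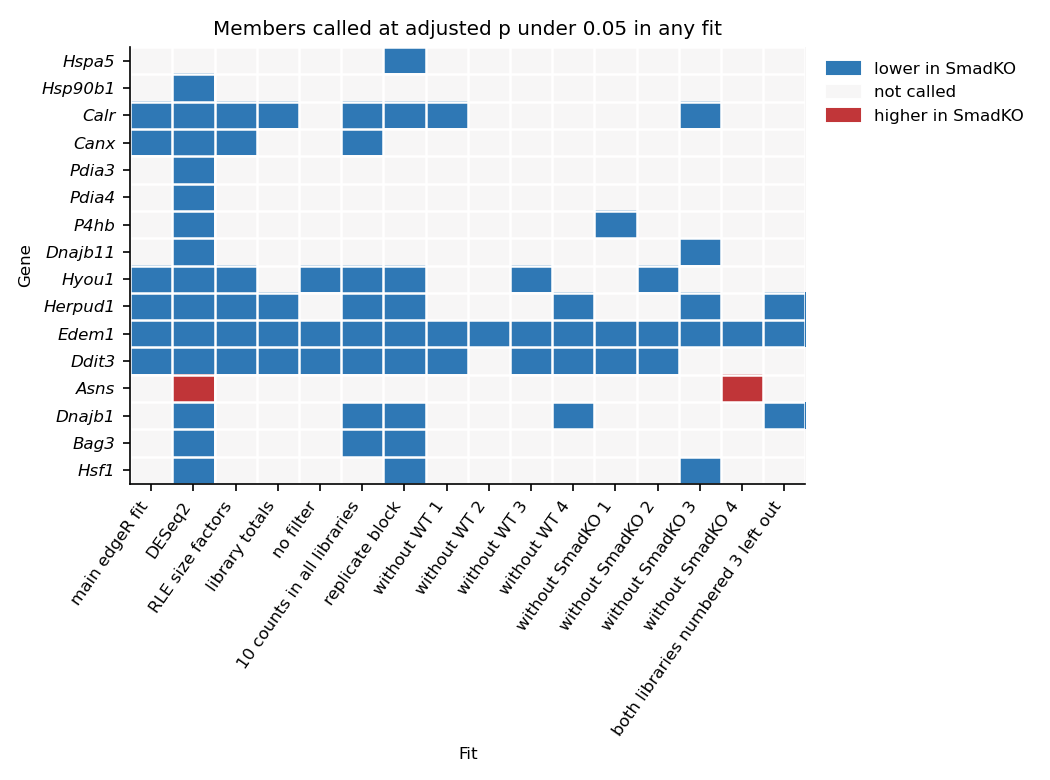
Rows are the 16 members called at an adjusted p under 0.05 in at least 1 fit, columns the fits, and color the direction of the call. Edem1 is called lower in all 16 fits, Canx in 4, and Asns is the only member called higher, in 2.

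Of 133 other genes of the same pathways that were tested, immediate early genes not included, 22 fell (16.5%) and 3 rose (2.26%). Of all genes 7.97% were called lower and 4.36% higher, and of the more abundant genes 12.6% and 6.37%. The median log2 fold change of the 133 was -0.25, beside -0.08 over the more abundant genes. These lists were chosen with earlier results of these data known, so their shares are descriptions only. The other genes of ER-associated degradation held 6 that fell among 19 (31.6%, against 7.97% of all genes), and 0 that rose. Edem2, a mannosidase that starts the trimming of misfolded glycoproteins, was 324 ± 79.4 CPM in WT and 71.0 ± 19.6 in SmadKO (log2 fold change -2.19 ± 0.27 SE, adjusted p = 0.00109, edgeR). Ube2j1, the ubiquitin-conjugating enzyme of the ER membrane, was 177 ± 34.8 and 48.3 ± 10.7 CPM (-1.87 ± 0.21 SE, adjusted p = 0.000670). Syvn1, the ligase that Sel1l and Herpud1 work with, was 77.2 ± 14.3 and 47.5 ± 6.97 CPM (-0.70 ± 0.18 SE, adjusted p = 0.0350). Edem1, Edem2 and Ube2j1 each showed a 4-fold or near 4-fold difference without overlap between the groups, and the Edem2 and Ube2j1 calls held in all 8 fits that left out 1 library, the Syvn1 call in 3.

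Among 21 other ER folding genes 3 fell (14.3%) and 0 rose, beside 7.97% and 4.36% of all genes. Of the more abundant genes 12.6% were called lower and 6.37% higher. Pdia5, a disulfide isomerase, was 22.7, 20.8, 48.2 and 20.1 CPM in WT and 1.71, 1.69, 1.95 and 0.0276 CPM in SmadKO, the largest fold of the lists (log2 fold change -4.37 ± 0.82 SE, adjusted p = 0.00926, edgeR). Hspa13, an HSP70-like ATPase of microsomes, and Uggt1, the glucosyltransferase that returns unfolded glycoproteins to calnexin, had log2 fold changes of -0.72 and -0.65 (adjusted p = 0.0373 and 0.0465), and were called in 0 and 1 of the 8 fits with 1 library left out. Among 20 genes of the translocon and of signal peptide processing 3 fell (15%) and 1 rose (5%), near the shares of the more abundant genes. Tram1, a membrane protein of the translocation channel, and Srp68, a subunit of the signal recognition particle, had log2 fold changes of -0.74 and -0.79 (adjusted p = 0.0132 and 0.0393), while Sec61g, the small channel subunit, had 0.92 (adjusted p = 0.0437). Tram1 was called in all 8 fits with 1 library left out, and Srp68 and Sec61g in 2 each.

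Among 29 other genes of the ATF4 and integrated stress response 8 fell (27.6%) and 2 rose (6.9%), beside 7.97% and 4.36% of all genes. The more abundant genes had 12.6% called lower and 6.37% higher. The median log2 fold change of the 29 was -0.46. Slc7a5, a transporter of large neutral amino acids, was 79.6 ± 26.6 CPM in WT and 17.8 ± 3.96 in SmadKO (log2 fold change -2.16 ± 0.28 SE, adjusted p = 0.00131, edgeR). Nupr1, a small stress-induced nuclear protein, was 35.9 ± 8.27 and 11.2 ± 5.54 CPM (-1.68, adjusted p = 0.0163, or 0.0505 without WT 3). Gdf15, a secreted stress cytokine, went the other way, from 4.86 ± 1.49 to 17.8 ± 6.41 CPM (1.87 ± 0.34 SE, adjusted p = 0.00773, edgeR), so that the list moved in both directions.

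Of 25 other cytosolic chaperones 2 fell (8%, beside 7.97% of all genes), Hspa4 and Dnajb4, an HSP110 family member and an HSP40 (log2 fold changes -0.94 and -1.20, adjusted p = 0.0123 and 0.0248), and 0 rose, while 3 were lower and 3 higher at an unadjusted p under 0.05 and DESeq2 called 2 lower and 2 higher. The Hspa4 call held in all 8 fits that left out 1 library, and the Dnajb4 call in 3, being lost without WT 1 or any of the SmadKO libraries (adjusted p up to 0.0701) and with the replicate block (adjusted p = 0.0531). Of the 8 subunits of the cytosolic chaperonin TRiC and of 11 other mitochondrial chaperones and proteases, 0 were called in either direction by edgeR. At an unadjusted p under 0.05 the counts were 0 and 3 lower and 0 higher, and DESeq2 called 0 and 1 lower. Over all genes 15.6% were lower and 13.1% higher at an unadjusted p under 0.05, and DESeq2 called 11.5% and 8.97%. Of the 15 immediate early genes 1 fell (6.67%) and 2 rose (13.3%), beside 7.97% and 4.36% of all genes. Egr1, a zinc finger transcription factor, fell (6663 ± 2395 CPM in WT and 1911 ± 837 in SmadKO, log2 fold change -1.80). Ier3, an early response survival gene, and Ccl3, a chemokine, rose (1.68 and 1.43).

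**Figure D5:**
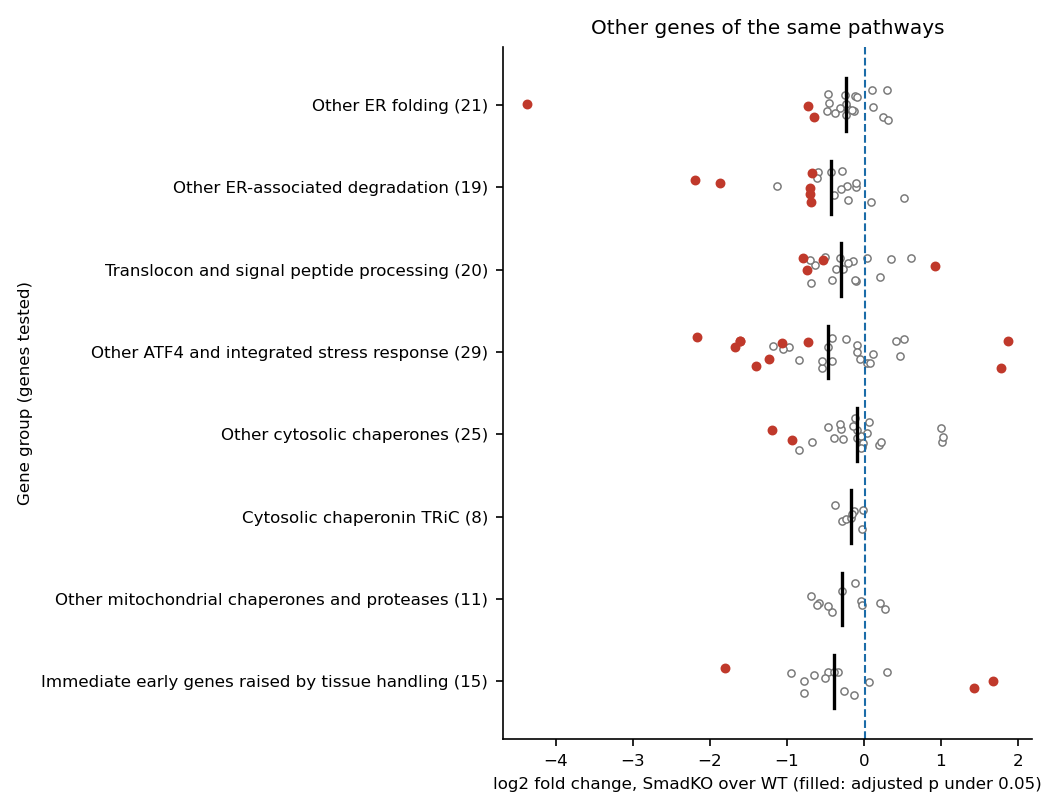
Each point is the log2 fold change of 1 gene of the other pathway lists, filled where the adjusted p is under 0.05. Black bars give the median of each list and the dashed line the median of all genes tested (0.01). All 8 medians lie below the dashed line, from -0.09 (other cytosolic chaperones) to -0.46 (other ATF4 and integrated stress response).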

How the data were processed

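RNA was sequenced from sorted microglia of 4 SmadKO and 4 WT mice. The deposited table holds raw counts per gene, which the authors made by aligning reads to mm10 and counting with featureCounts. The submitters' processing notes also name DESeq2 1.28, and a second deposited table with the authors' fold changes and p-values was not used. The labels describe single-end unstranded Nextera XT libraries, whereas the study's methods describe paired-end unstranded polyA libraries. How reads with several matches were counted is not given in the sources used here.

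Counts were matched to GENCODE M21 (GRCm38). Genes that reached 10 counts in 4 or more of the 8 libraries were tested with edgeR 4.0.16 (TMM, quasi-likelihood test, R 4.3.3), with Benjamini-Hochberg adjustment over 20153 genes and a threshold of 0.05. SE is the absolute log2 fold change divided by the square root of F. Scripts were tested on simulated data. Alternatives were DESeq2 1.42.0, RLE factors, library totals, no filter, 10 counts in all libraries, the replicate block and each library left out. Libraries held 35639502 to 41946479 counts.

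The members and the gene lists were chosen with earlier results of these data known. Any member could be named, and from each other list up to 3 called genes with the largest absolute log2 fold change whose mean reached 3 log2 CPM. Shared words are 50-base runs of the GENCODE transcripts, and promoters come from RefSeq.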

Additional observations from a re-analysis of the deposited data

Results flagged for a closer look

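In groups of 4 libraries, a value was noted where the gap between the highest or lowest library and its neighbor exceeded the Dixon 95% critical share of the whole range of the group. Chance marks about 1 in 20 groups, and 6 of the 92 groups examined were marked, where 4.6 would be by chance. Among single genes, Herpud1 in SmadKO had SmadKO 3 apart at 317 CPM (gap 0.869 of the range), Asns in SmadKO had SmadKO 4 apart at 18.1 CPM (0.907), Hsph1 in WT had WT 3 apart at 96.6 CPM (0.909), and Hsph1 in SmadKO had SmadKO 4 apart at 51.1 CPM (0.885). The summed ER chaperones in WT had WT 3 apart at 10280 CPM (0.883), and the summed genes of ER-associated degradation in SmadKO had SmadKO 3 apart at 467 CPM (0.875). The causes were not tested.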

How the results depend on the processing

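With DESeq2, 14 members were called lower and 1 higher, and over all genes 2659 lower and 2079 higher, against 1607 and 878 with edgeR. Without a filter 3 members were called lower, and fewer of all genes were called in either direction than with it. With each library left out, 1 to 5 members were called lower and 0 to 1 higher, and 1005 to 1587 and 525 to 1024 of all genes, and with both libraries numbered 3 left out, 3 members were called lower and 797 and 465 of all genes. The fits with libraries left out hold fewer samples. RLE factors gave the same 6 calls. With library totals in place of TMM 4 members were called, and over all genes fewer were called lower and more higher. The median of all genes was then 0.13 instead of 0.01 on the log2 scale. Relative to that shift, the values of Dnajc3 (0.0957), Ern1 (0.0961) and Xbp1 (0.0512) remained below the median of all genes.

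Same-numbered libraries deviated together with r of 0.166, 0.0183, 0.144 and 0.114, and not every library correlated best with its own number, so the numbers were not taken to pair the mice. With the replicate block 9 members were called lower and 0 higher, 5 of them among the 6 called without it. Hspa5 (adjusted p = 0.0448), Dnajb1, Bag3 and Hsf1 were added, and Canx was not called. Over all genes, fewer were called lower with the block than without it, and slightly more were called higher.

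Reversals of sign concerned genes that were not called. With each library left out, log2 fold changes ran from -0.0525 to 0.403 for Dnajb9, -0.0853 to 0.0557 for Dnajc3, -0.281 to 0.00459 for Sdf2l1, -0.0235 to 0.323 for Manf, -0.261 to 0.165 for Ern1, -0.188 to 0.106 for Xbp1, -0.167 to 1.33 for Trib3, -0.0644 to 1.46 for Hspa1b, -0.447 to 0.0980 for Hspa8, -0.0448 to 0.257 for Hsp90aa1 and -0.125 to 0.371 for Dnaja1. With both libraries numbered 3 left out, Dnajc3 was at 0.0949, Xbp1 at 0.0499, Hspa8 at 0.00398 and Hsph1 at 0.000524. With 10 counts in all libraries Ern1 was at 0.00184, and Dnaja1 was at -0.00904 with DESeq2 and -0.0145 without a filter. The cause was not tested. With 4 mice a group, an adjusted p above the threshold does not show that a gene was unchanged.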

Other observations

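The ratio of the inducible HSP70 gene Hspa1a to its partner gene Dnajb1 within each library was chosen after their values were seen and is given without a test. It was 0.148, 0.365, 0.393 and 0.198 in WT and 1.66, 1.98, 1.55 and 0.861 in SmadKO, so the ranges did not overlap although Hspa1a overlapped between the groups. For Hspa1b over Dnajb1 the ratios ran from 0.405 to 1.44 in WT and from 1.97 to 5.28 in SmadKO. Within the HSP70 pair, the ratio of Hspa1a to Hspa1b ran from 0.273 to 0.420 in WT and from 0.372 to 0.436 in SmadKO.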
